A study of Arabidopsis thaliana with 8 samples.

Results

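CHIL (AT5G05270), DFR (AT5G42800) and BAN (AT1G61720) are 3 genes of flavonoid synthesis, the pathway that gives Arabidopsis seeds their brown colour. They were taken by the gene annotation of the array, in which each had 1 probe, so 3 of 26912 probes and 3 of 14228 named loci are described. Each hybridization compared RNA from early siliques, the seed pods, harvested 2 to 5 DAP (days after pollination) with RNA from a 90%-late sample, which held 90% late siliques (6 to 10 DAP) and 10% early siliques. Target was prepared in 4 ways, with 2 slides each. These were 30 µg of unamplified total RNA, 5 µg through a single round of in vitro transcription (IVT), 50 ng through 2 rounds (2IVT), and 50 ng through 20 cycles of PCR. Cy5 always marked the early target and Cy3 the 90%-late target, so that dye and stage cannot be told apart. A single RNA sample of each stage, taken from whole siliques, served all regimes, and in the amplified regimes 1 preparation of 90%-late target served both slides. The errors and p-values therefore measure preparation of the early target and hybridization, and not the spread between plants. In the amplified regimes they do not cover the spread between preparations of 90%-late target. A difference between regimes can include that spread.

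Flavonoids are built from phenylalanine through the phenylpropanoid pathway. Chalcone synthase makes a chalcone, chalcone isomerase closes its ring, and hydroxylations then give dihydroflavonols. These are either oxidized to flavonols, which are stored as glycosides, or reduced towards anthocyanins and proanthocyanidins, the tannins of the seed coat. CHIL encodes a chalcone isomerase-like protein without isomerase activity that raises flavonoid output early in the pathway. DFR (TT3) encodes dihydroflavonol 4-reductase, at the branch towards anthocyanins and proanthocyanidins. BAN encodes anthocyanidin reductase, the step committed to proanthocyanidins, and in young Arabidopsis seeds it is known for its expression in the endothelium, the innermost layer of the seed coat.

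The deposited value is a log2 ratio for each probe and slide, in which positive is higher in the early sample. Between 22733 and 24403 probes had a value on a slide, and the median of a slide lay between 0.011 and 0.081. The direction was inferred from the dyes and from the design, in which the 10% early material limits a gene expressed only early to a 10-fold ratio. On the unamplified slides 196 and 205 probes lay beyond 10-fold on the negative side and 1 on each slide lay beyond it on the positive side. The slides of a regime carried neighbouring slide numbers, and the slide titles name no batch. Regime and slide order therefore cannot be told apart. A ratio gives no level, so the labelled tissue could not be checked for presence of its markers. Of the seed coat and ovule markers listed besides BAN, 0 of 4 were measured, and of the flavonoid regulators, which include TT2, TT8 and TT16, 0 of 15 were measured. Measured here means that a probe carried a symbol matched to the gene, so these genes are not shown to lack a probe. The study's text places TT8 on the array, and its values were not analysed here. In whole siliques, fewer cells of a type and less RNA per cell cannot be told apart.

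CHIL was higher in the early sample under every regime, by 1.87-fold in unamplified target, 1.86-fold with IVT, 2.04-fold with 2IVT and 1.64-fold with PCR. DFR was called only in the unamplified regime, at 1.58-fold. BAN was called in the unamplified regime at 1.26-fold and after IVT at 2.74-fold. A call here is an adjusted p under 0.05 from limma, fitted to all 8 slides together and adjusted by Benjamini-Hochberg over 23548 probes. All 3 genes were called higher in early unamplified, 2 with IVT, 1 with 2IVT and 1 with PCR, and none was called lower. Over all probes, 26.0% were called higher in early and 17.7% lower in the unamplified regime, 31.8% and 22.5% with IVT, 25.1% and 19.9% with 2IVT, and 16.2% and 14.7% with PCR, so calls in either direction were common.

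**Figure D1:**
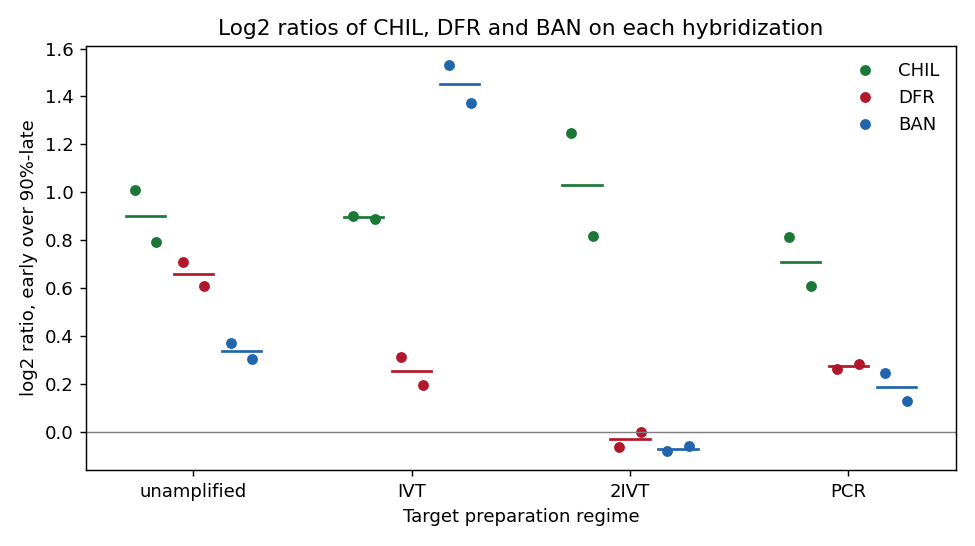
Log2 ratio of early over 90%-late (vertical axis) for CHIL, DFR and BAN in the 4 target preparation regimes (horizontal axis). Points are single hybridizations and short lines are means of 2. CHIL lay between 0.61 and 1.25 on all 8 slides, BAN lay at 1.37 and 1.53 after IVT and between -0.08 and 0.37 on the other slides, and DFR was highest on the unamplified slides.

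On the unamplified slides the log2 ratio of CHIL was 1.01 and 0.79. It was 0.90 and 0.89 on the IVT slides, 1.25 and 0.82 with 2IVT and 0.81 and 0.61 with PCR. All 8 values were positive, and the slides of the 4 regimes interleaved. Of 20638 probes with a value on every slide, 16.8% were positive on all 8. The means were 0.90 ± 0.15 (SD, n = 2), 0.90 ± 0.010, 1.03 ± 0.30 and 0.71 ± 0.15 in the same order. The adjusted p from limma was 0.00018, 0.00012, 5.88e-05 and 0.00204. These p-values rest on a spread pooled over the regimes, so their order does not rank the regimes by how well their slides repeat. In limma fits of each regime's slides alone, CHIL passed in all 4. There the adjusted p was largest for 2IVT and smallest for PCR. The largest gap between 2 slides of a regime was that after 2IVT, and the smallest was that after IVT.

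No pair of regimes differed for CHIL past the threshold. Over all probes, either direction included, 17.2% were called between IVT and unamplified, 16.2% between 2IVT and unamplified, 20.8% between PCR and unamplified, 13.5% between 2IVT and IVT, 38.9% between PCR and IVT and 30.1% between PCR and 2IVT. The difference of log2 ratios between IVT and unamplified was -0.0058, with a 95% confidence interval from -0.40 to 0.39. That between 2IVT and unamplified was 0.13 (-0.27 to 0.53) and that between PCR and unamplified was -0.19 (-0.59 to 0.21). These intervals do not show that the regimes act alike on this gene. PCR minus 2IVT was -0.32 (-0.72 to 0.08, adjusted p = 0.203 from limma), and without 2IVT replicate 2 it was -0.54 with an adjusted p of 0.0477.

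DFR had log2 ratios of 0.71 and 0.61 on the unamplified slides. After IVT they were 0.31 and 0.20, with 2IVT -0.063 and 0.0016, and with PCR 0.26 and 0.28. Both unamplified slides lay above all 6 slides of amplified target, and both 2IVT slides lay below all others. Over all probes, both slides lay below both unamplified slides for 32.4% with IVT, 30.3% with 2IVT and 34.9% with PCR. The share of probes with the whole pattern of DFR was not counted. The means were 0.66 ± 0.071 (SD, n = 2), 0.25 ± 0.081, -0.031 ± 0.046 and 0.27 ± 0.014 in the same order. Only the unamplified mean was past the threshold (adjusted p = 0.000351 from limma), and the others had 0.0552, 0.838 and 0.0637. The values for IVT and PCR lay close to the threshold. Over 14 alternative settings the adjusted p ran from 0.0341 to 0.381 for IVT, which passed in 3, and from 0.0328 to 0.213 for PCR, which passed in 2.

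The order of DFR from the highest mean to the lowest was unamplified, PCR, IVT and 2IVT. No neighbours in this order differed past the threshold, with adjusted p of 0.0842, 0.926 and 0.228 from limma. The ends of the order did. DFR fell by 0.69 on the log2 scale between unamplified and 2IVT target (95% confidence interval of the difference -1.01 to -0.37, adjusted p = 0.00875 from limma). Over all probes, 7.92% were called lower in this comparison. Without unamplified replicate 1 the difference was -0.64 and the adjusted p was 0.0722. The difference between IVT and unamplified was -0.40 (-0.72 to -0.09) and that between PCR and unamplified was -0.38 (-0.70 to -0.07), with adjusted p of 0.08 and 0.0842 over all probes.

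BAN had log2 ratios of 0.37 and 0.30 on the unamplified slides and 1.53 and 1.37 on the IVT slides. The 2IVT slides gave -0.079 and -0.061, and the PCR slides 0.25 and 0.13. The IVT slides stood far above every other slide, and the 2IVT slides were the lowest of the 8. In no pair of regimes did the slides overlap, and over all probes such a gap in the direction of BAN was common. The share was 33.9% for IVT above unamplified, 30.8% for 2IVT below IVT, 41.1% for PCR below IVT and 29.9% for PCR above 2IVT. For 2IVT below unamplified it was 30.3%, and for PCR below unamplified 34.9%. The share with all of these gaps at once was not counted. The means were 0.34 ± 0.046 (SD, n = 2) unamplified, 1.45 ± 0.11 with IVT, -0.070 ± 0.013 with 2IVT and 0.19 ± 0.082 with PCR. Early over 90%-late was called unamplified (adjusted p = 0.0215 from limma) and after IVT (5.31e-07), but not after 2IVT (0.623) or PCR (0.194). The unamplified call is weak, since the adjusted p was 0.0550 once each slide was centred on its median, 0.179 without unamplified replicate 1 and 0.112 without unamplified replicate 2.

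BAN rose by 1.12 on the log2 scale between unamplified and IVT target, which is a ratio 2.17 times as large (95% confidence interval of the difference 0.79 to 1.44, adjusted p = 0.000457 from limma). In this comparison 9.11% of all probes were called higher. From IVT to 2IVT the log2 ratio fell by 1.52 (-1.85 to -1.20, adjusted p = 0.000114 from limma, with 6.68% of all probes called lower), and from IVT to PCR it fell by 1.27 (-1.59 to -0.94, adjusted p = 6.78e-05, with 21.3% called lower). IVT was thus the regime in which BAN differed from each of the other 3. Between unamplified and 2IVT the difference was -0.41 (-0.73 to -0.08, adjusted p = 0.0852), between unamplified and PCR -0.15 (-0.47 to 0.17) and between 2IVT and PCR 0.26 (-0.07 to 0.58), and none of these passed.

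**Figure D2:**
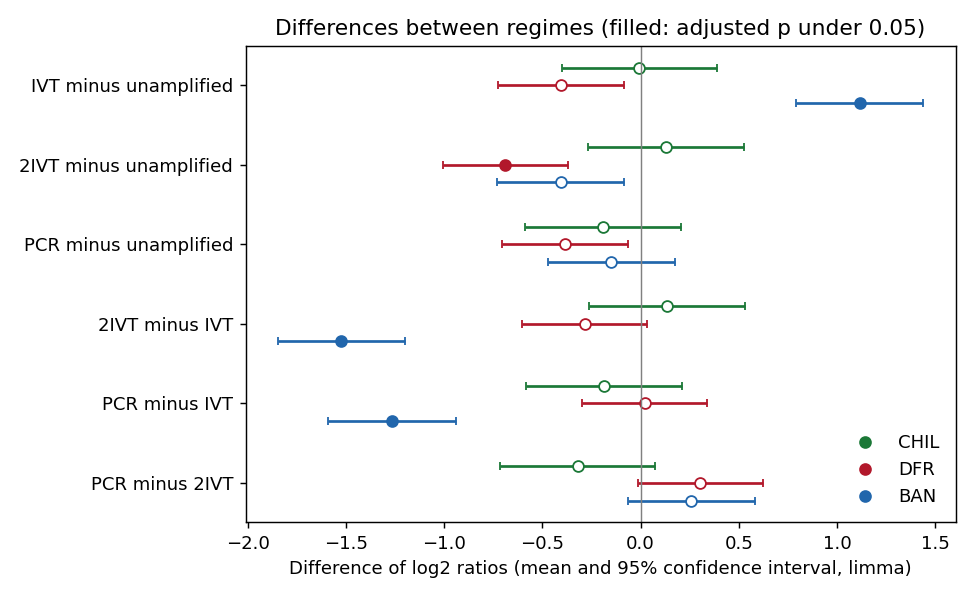
Difference of log2 ratios between 2 regimes (horizontal axis) for each of the 6 pairs of regimes (vertical axis), with 95% confidence intervals from limma. Filled points have an adjusted p under 0.05. BAN differed between IVT and each other regime (1.12, -1.52 and -1.27), DFR between 2IVT and unamplified (-0.69), and CHIL in no pair.

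Averaged over the 4 regimes with equal weight, all 3 genes were higher in the early sample. CHIL had a mean log2 ratio of 0.89 ± 0.064 (standard error, adjusted p = 2.96e-07 from limma), BAN 0.48 ± 0.052 (9.41e-06) and DFR 0.29 ± 0.051 (0.000414). Over all probes 39.3% were called higher in early in this average. For BAN the average mixes 2 slides well above 1 with 6 slides under 0.38. For DFR it mixes regime means from -0.031 (2IVT) to 0.66 (unamplified). The standard errors and p-values rest on the spread between slides of a regime, and not on the spread between regimes.

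Read along the pathway, the order of the ratios changed with the regime. CHIL exceeded DFR on 8 of 8 slides, by 0.18 to 1.31 log2 units. It exceeded BAN on 6 of 8 slides, and CHIL minus BAN was -0.63 and -0.49 on the IVT slides. BAN minus DFR was -0.34 and -0.30 on the unamplified slides and 1.22 and 1.18 on the IVT slides, whereas on the 2IVT and PCR slides it lay between -0.15 and -0.016. DFR and BAN, on the same branch, were therefore close to each other on 4 slides and far apart on the IVT slides. These are comparisons of log2 ratios between genes on a slide and say nothing of their transcript levels. The slides share their RNA, and the share of other pairs of probes with such an order was not counted.

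Ranked among all probes of the same slide, CHIL stood between the 89.1 and 97.0 percentile towards early on all 8 slides. DFR stood at 89.7 and 85.8 on the unamplified slides, 66.7 and 58.6 with IVT, 41.9 and 45.1 with 2IVT and 74.0 and 74.9 with PCR. BAN stood at 75.2 and 69.3 on the unamplified slides, 97.6 and 96.2 with IVT, 40.4 and 37.8 with 2IVT and 72.5 and 61.3 with PCR. By rank, which does not depend on how wide the ratios of a slide spread, CHIL kept its place under PCR although its ratio was smallest there. Both branch genes ranked below the middle probe after 2IVT.

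**Figure D3:**
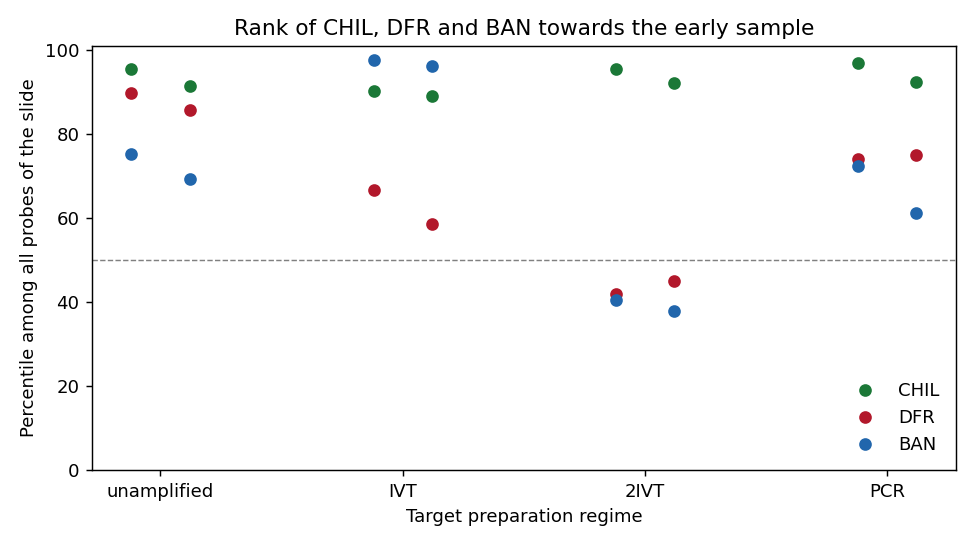
Percentile of CHIL, DFR and BAN among all probes with a value on the same slide (vertical axis, higher is more early) by target preparation regime (horizontal axis). Points are single hybridizations and the dashed line marks the middle probe. CHIL stayed above 89 on all slides, and DFR and BAN lay below the middle on both 2IVT slides. With slides centred on their medians, neither 2IVT mean was past the threshold.

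Of 46 listed genes of phenylpropanoid and flavonoid synthesis and their regulators, 9 had a probe with a name, the 3 above and 6 more. A listed gene without one is not shown to lack a probe, since 12373 probes had no gene symbol. Of the 9, 7 were called higher in the early sample unamplified, 7 with IVT, 5 with 2IVT and 2 with PCR, and 0 were called lower in any regime. Over all probes the shares called higher were the 26.0%, 31.8%, 25.1% and 16.2% given above. The unamplified count was 4 without either unamplified slide, and the 2IVT count was 3 without 2IVT replicate 2. Their median log2 ratio was 0.65, 0.90, 0.33 and 0.13 in the same order, against 0.068, 0.081, 0.044 and 0.012 over all probes with both slides. None of the 8 listed entry genes of the phenylpropanoid pathway was measured, and CHIL was the one gene measured of 5 early flavonoid steps.

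Of the genes listed with the flavonol branch, 4 were measured. UGT78D2, a flavonoid glucosyltransferase, had log2 ratios of 1.05 and 0.999 on the unamplified slides and 1.10 and 0.93 on the IVT slides. The 2IVT slides gave 0.27 and 0.39 and the PCR slides -0.043 and -0.079. It was positive on 6 slides and slightly negative on the PCR slides, and PCR minus unamplified was -1.09 (95% confidence interval -1.41 to -0.76, adjusted p = 0.000471 from limma). UGT78D3, which encodes a flavonol arabinosyltransferase, had 0.10 and -0.026 unamplified and 1.02 and 1.20 with IVT. With 2IVT it had 0.36 and 0.79 and with PCR -0.058 and -0.13. Its ratio was thus near 0 unamplified and near 1 after IVT, and the difference of 1.07 (95% confidence interval 0.68 to 1.45) had an adjusted p of 0.00191 from limma. UGT78D1, a flavonol rhamnosyltransferase gene, lay between 0.60 and 0.87 on the unamplified and IVT slides, at 0.68 and 0.15 after 2IVT, and at 0.24 and -0.33 after PCR. Its 2IVT call lay close to the threshold (adjusted p = 0.0494 from limma). It was lost with slides centred on their medians (0.0748) or scaled to a common SD (0.0965). In a limma fit of the 2IVT slides alone, the 2IVT calls of UGT78D1 and UGT78D2 were lost (adjusted p = 0.106 and 0.113). AT1G06000, listed with this branch but without a name in the tables used, was positive on 8 of 8 slides, from 0.64 to 1.60. Among probes with a value on every slide, 16.8% were positive on all 8. AT1G06000 was called higher in early in all 4 regimes, as CHIL was. The share of all probes called in all 4 was not counted. Over all probes 11.0% were called lower with PCR than unamplified and 15.6% lower with PCR than with 2IVT. UGT78D1, UGT78D2 and UGT78D3 are related genes, and binding of target from one to the probe of another was not tested.

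Of the anthocyanin and proanthocyanidin genes besides DFR and BAN, AT4G14090, which has no name in the tables, and UGT79B1 (AT5G54060), a flavonoid glycosyltransferase gene, were measured. AT4G14090 lay between -0.073 and 0.41 and was called in the unamplified regime (mean 0.36 ± 0.076, SD, n = 2, adjusted p = 0.0442 from limma). UGT79B1 lay between -0.068 and 0.43 and was called after IVT (0.37 ± 0.049, adjusted p = 0.0173). Both calls lay close to the threshold, and each was lost once the slides were centred on their medians (adjusted p = 0.0929 and 0.0505) or without either slide of its regime (0.146 and 0.300 for AT4G14090, 0.175 and 0.106 for UGT79B1). Over the 4 genes of this branch the median log2 ratio was 0.35 unamplified, 0.31 with IVT, 0.043 with 2IVT and 0.16 with PCR. That of the 4 genes listed with the flavonol branch was 0.80, 1.04, 0.49 and -0.055. Unamplified, the means of those 4 ran from 0.039 (UGT78D3) to 1.03 (UGT78D2).

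**Figure D4:**
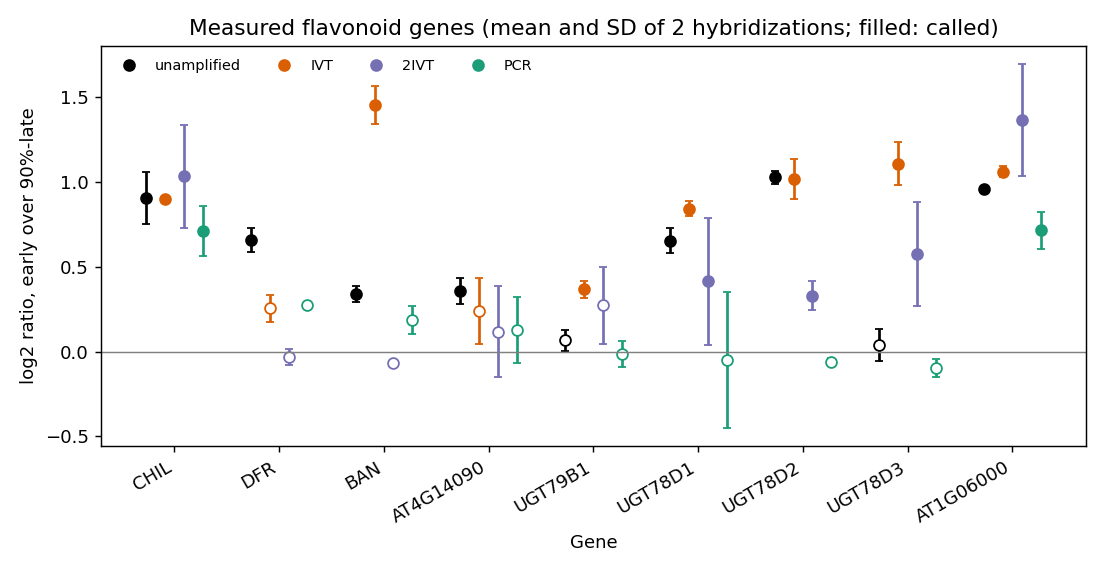
Mean log2 ratio of early over 90%-late (vertical axis) for the 9 measured flavonoid genes (horizontal axis) in each regime. Bars are the SD of 2 hybridizations, and filled points have an adjusted p under 0.05 from limma. CHIL and AT1G06000 were called in all 4 regimes, and BAN had the largest mean, 1.45, after IVT. The share of all probes called in all 4 regimes was not counted.

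Target from other tissues of the silique was also in these samples. Of 5 listed endosperm markers 2 were measured, of 7 silique wall markers 1, and of 6 embryo markers 0. AGL62, a MADS box gene of early endosperm, had log2 ratios of 0.46 and 0.12 unamplified and 1.12 and 1.22 with IVT. With 2IVT they were 1.001 and 0.70, and with PCR -0.17 and -0.26. PHE1, another endosperm MADS box gene, ranged from -0.15 to 0.67 and ALC, a gene of valve margins, from 0.14 to 1.06. AGL62 lay, like BAN and UGT78D3, higher on both IVT slides than on both unamplified slides, as 33.9% of all probes did. PHE1 overlapped between these regimes, with -0.067 and 0.56 unamplified and 0.50 and 0.67 with IVT. ALC lay lower on both IVT slides (0.14 and 0.22) than unamplified (0.51 and 0.36), as 32.4% of all probes did. The part of these tissues in the values of the flavonoid genes was not tested.

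Among 11272 other named probes with a value on every slide, those nearest to CHIL by the root mean square difference of log2 ratios over the 8 slides were CSLC04 (0.13), a cellulose synthase-like gene, AT1G34560 (0.13) and GSTU27 (0.16), a glutathione S-transferase gene. For DFR they were AT1G72880 (0.085), AT3G26750 (0.11) and AT4G33080 (0.12). For BAN they were CHB3 (0.19), which encodes a chromatin remodelling subunit, AT5G38010 (0.19) and AT3G05230 (0.21). The median difference over all named probes was 0.89 from CHIL, 0.52 from DFR and 0.79 from BAN. CHB3 had 0.32 and 0.10 unamplified and 1.46 and 1.11 with IVT. With 2IVT it had -0.11 and 0.32 and with PCR 0.14 and 0.19. CHB3 was picked for its nearness to BAN on these slides, so its higher values on the IVT slides follow from that choice. None of the 9 nearest genes was on the flavonoid list, but only 9 listed genes were measured, so few could have appeared. A ranking by correlation over the 8 slides, which share their RNA, named none of the same genes.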

How the data were processed

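The authors deposited 1 log2 ratio for each probe and slide. Per their methods, GenePix intensities were divided by the mean of the slide and then corrected with elements of SNOMAD for local means over the slide surface and over signal intensity. The sources used here do not say if dim spots had already been trimmed or interpolated and saturated spots replaced in these values, and log base and direction were inferred. A ratio near 0 can therefore come from equal or from dim channels, and the number of slides limits the precision. Of 26912 probes, 14539 had a gene symbol and 14485 were matched to a locus (TAIR10.1 tables).

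No further normalization was applied. Probes were fitted if they had a value on at least 1 slide of each regime and on more than 4 slides in all. The fit used limma 3.58.1 (lmFit, eBayes) in R 4.3.3, with a mean per regime over all 8 slides. Prior degrees of freedom were 6.83, and Benjamini-Hochberg adjustment ran over 23548 probes in each comparison. The 6 differences between regimes and the mean over regimes were contrasts of this fit. The spread was pooled over regimes. The smallest two-sided p of an exact permutation test of 2 slides against 2 is 0.333. The fit was tested on simulated data. Python 3.11.15, pandas 2.3.3 and matplotlib 3.10.9 were used for tables and plots. Named genes are the 3 members, the measured flavonoid genes, and for each member the 3 named genes with the smallest root mean square difference over the 8 slides. The members, lists and tests were chosen with earlier results of these data known. Promoters, proteins and probe sequences were not analysed here. Alternatives were centring, scaling, separate fits, robust eBayes, complete probes, a replicate block, a 2-fold requirement and leaving out each slide.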

Additional observations from a re-analysis of the deposited data

Results flagged for a closer look

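Differences between regimes in the ratio of early over 90%-late passed the test of the difference itself (limma, adjusted p under 0.05) for 14 of 54 combinations of gene and pair of regimes, or 25.9%. Over all probes the share called ran from 13.5% (2IVT and IVT) to 38.9% (PCR and IVT), a range that holds this share. BAN differed by 1.12 between IVT and unamplified, by -1.52 between 2IVT and IVT and by -1.27 between PCR and IVT, and DFR by -0.69 between 2IVT and unamplified. UGT78D3 differed by 1.07 between IVT and unamplified, by -1.20 between PCR and IVT and by -0.67 between PCR and 2IVT. For UGT78D2 the differences were -0.70 (2IVT minus unamplified), -1.09 (PCR minus unamplified), -0.69 (2IVT minus IVT) and -1.08 (PCR minus IVT). UGT78D1 gave -0.70 between PCR and unamplified and -0.89 between PCR and IVT, and AT1G06000 gave -0.65 between PCR and 2IVT. Adjusted p ran from 6.78e-05 to 0.0437. Some of these calls were lost under an alternative. Adjusted p was 0.0722 for DFR and 0.0676 for UGT78D2 (2IVT minus unamplified) without unamplified replicate 1, 0.0586, 0.118 and 0.0634 for UGT78D2 (2IVT minus IVT) without 2IVT replicate 1, IVT replicate 1 and IVT replicate 2, and 0.0712 and 0.0702 for UGT78D3 (PCR minus 2IVT) without 2IVT replicate 2 and PCR replicate 2. For AT1G06000 it was 0.105 without 2IVT replicate 1 and 0.0889 without PCR replicate 1. For UGT78D1 it was 0.0516 (PCR minus IVT) without IVT replicate 1 and 0.0782 without PCR replicate 2. For PCR minus unamplified it was 0.260 without PCR replicate 2, 0.18 and 0.128 without unamplified replicates 1 and 2, and 0.0687 and 0.0698 without IVT replicates 1 and 2. With slides scaled to a common SD it was 0.0518 for AT1G06000 and 0.0849 for UGT78D2 (2IVT minus IVT), in a fit of only the regimes compared 0.0544 for AT1G06000, and with slides centred 0.0611 for UGT78D1 (PCR minus unamplified). With 2 slides in a regime no slide could be examined as an outlier.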

How the results depend on the processing

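Of 33 results for CHIL, DFR and BAN (each regime, pair of regimes and the mean), 22 kept their direction and their side of the threshold under every alternative run. The sign turned in 6, none of which was called with either sign. With single slides left out these ran from -0.080 to 0.35 for CHIL 2IVT minus IVT, -0.086 to 0.35 for CHIL 2IVT minus unamplified, -0.11 to 0.10 for CHIL IVT minus unamplified, -0.063 to 0.0016 for DFR 2IVT and -0.037 to 0.077 for DFR PCR minus IVT, and CHIL PCR minus IVT was 0.096 with slides scaled to a common SD. BAN unamplified lost its call with slides centred on their medians (log2 ratio 0.27) and ranged from 0.30 to 0.37 when single slides were left out. Left out singly, slides moved DFR 2IVT minus unamplified between -0.74 and -0.64, CHIL PCR minus 2IVT between -0.54 and -0.10, DFR IVT between 0.20 and 0.31 and DFR PCR between 0.26 and 0.28. DFR IVT passed at 0.25 in a fit of its own slides, and DFR PCR passed at 0.33 with slides scaled to a common SD.

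With at least 2-fold also required, 1, 4, 2 and 0 of the 9 flavonoid genes were called higher (unamplified, IVT, 2IVT, PCR), and over all probes 1017, 1927, 1269 and 250 were called higher and 1463, 2091, 1560 and 559 lower. In the fit of its own slides, 3 flavonoid genes were called with 2IVT. Leaving out single slides gave 4 to 7 flavonoid genes unamplified and 3 to 5 with 2IVT. Over all probes it gave 3508 to 6671 higher and 2725 to 4466 lower unamplified, 4873 to 7863 higher with IVT, and 1875 to 4406 higher and 1780 to 3913 lower with PCR. The cause of these changes in count was not tested. Of 66 results for the other 6 flavonoid genes, 32 kept direction and call under every alternative, and the sign turned in 13, none of them called with either sign. AT1G06000 IVT minus unamplified was -0.12 with slides scaled to a common SD and UGT78D3 unamplified -0.025 with slides centred. With single slides left out, AT4G14090 ran from -0.073 to 0.31 with 2IVT and -0.011 to 0.26 with PCR, and its differences from -0.31 to 0.065 (2IVT minus IVT), -0.26 to 0.020 (IVT minus unamplified), -0.18 to 0.20 (PCR minus 2IVT) and -0.25 to 0.024 (PCR minus IVT). UGT78D1 ran from -0.50 to 0.025 (2IVT minus unamplified) and -0.33 to 0.24 (PCR), UGT78D2 from -0.092 to 0.074 (IVT minus unamplified), UGT78D3 from -0.026 to 0.10 (unamplified), and UGT79B1 from -0.25 to 0.068 (2IVT minus IVT) and -0.068 to 0.038 (PCR).

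Slides of the same replicate number did not deviate together (r from -0.060 to 0.031), so the numbers do not pair them. With the replicate block no call of CHIL, DFR or BAN changed (BAN IVT minus unamplified 1.12, adjusted p = 0.00103 from limma), and 6 flavonoid genes were called higher unamplified. The number of slides limits all values, and ratios give no signal over background. A fit of single regimes gives no mean of the 4, and averaging over probes of a gene and the comparisons of promoters and proteins were not run.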
